A study of Mus musculus with 4 samples.

Results

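Ltf and Lcn2, the genes of the secreted iron-binding proteins lactoferrin and lipocalin 2, were followed in the uterus of mice in early pregnancy under low or normal oxygen. Both were found by symbol in the authors' deposited table of uterus genes, where they are 2 of 903 genes. Neither is among the 854 genes of the deposited ovary table, so 0 of the 2 could be followed there. The pair was picked from this same uterus comparison, by its values and its biology, so the values below are a description and carry no test.

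Pregnant mice were sacrificed at embryonic day 3.5, shortly before embryos implant, for uterus and ovary. The hypoxia group was placed in low oxygen 72 hours after fertilization and the normoxia group, labelled Ctrl, was not. RNA from 3 samples was pooled for each of the 4 groups, uterus or ovary under hypoxia or normoxia, and each pool was sequenced as 1 library. No source used here gives the strain or age of the mice, the oxygen level or the length of the exposure. With 1 library per group, no spread between animals can be estimated and no difference below has a replicate check. A pooled tissue also cannot tell more cells of a type from more RNA per cell.

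Lactoferrin is a secreted glycoprotein of the transferrin family that binds ferric iron tightly and withholds it from bacteria. Lipocalin 2 does not bind iron directly but captures siderophores, the small molecules with which bacteria scavenge iron, and it can carry iron bound to them. In the rodent uterus lactoferrin is the classical secreted product of the epithelium under estrogen, and lipocalin 2 is also made by that epithelium. Both proteins are stored in the secondary granules of neutrophils, so their transcripts in a whole tissue can have more than one cellular source.

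The deposited tables give only log2 fold changes whose absolute value is at least 2, without levels, read totals or p-values. After division by 1 factor shared by the whole table, 0.995 in the uterus, every listed ratio was a ratio of whole numbers, here called terms. Each term was taken for a read count plus 1, an inference that no source states. A pair is known only in lowest form, and the counts behind it are larger where they shared a divisor. Which oxygen condition is the numerator is not stated either. Positive values are read here as higher in hypoxia, and every direction below rests on that reading.

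For Ltf the terms were 16403 in the hypoxia uterus library and 1740 in the normoxia uterus library. The hypoxia library was the higher, and both terms were large. In the authors' deposited table Ltf had a log2 fold change of 3.23, which is a 9.38-fold difference with a 95% exact counting interval of 8.93 to 9.87. For Lcn2 the terms were 344 in the hypoxia library and 21 in the normoxia library. The hypoxia library was again the higher, but the normoxia term was small. In the authors' deposited table Lcn2 had a log2 fold change of 4.03, a 16.3-fold difference with a counting interval of 10.9 to 28.3. These intervals cover counting error between 2 libraries and not variation between animals. Counts larger than the lowest form would make them narrower.

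The fold of Lcn2 exceeded that of Ltf by 0.80 on the log2 scale, a ratio of folds of 1.74. The exact counting interval of that ratio, with each term less 1 read as a count, ran from 1.16 to 3.02. It covers counting error within these libraries only and is not a test, since the pair was picked by these values. In amount the order was the opposite. Per kilobase of the longest annotated coding transcript, 2.743 kb for Ltf and 0.915 kb for Lcn2, the hypoxia terms were 5980 for Ltf and 376 for Lcn2. The normoxia terms per kilobase were 634 for Ltf and 23.0 for Lcn2. Ltf was thus 15.9 times Lcn2 in hypoxia and 27.6 times in normoxia by terms per kilobase of mRNA. Over all annotated exons of each gene the same ratios of terms per kilobase were 36.3 and 63.0. Because terms are in lowest form these level ratios are not fixed. The hypoxia count of Lcn2 would reach that of Ltf if a divisor of 48 had been lost from Lcn2 alone.

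**Figure D1:**
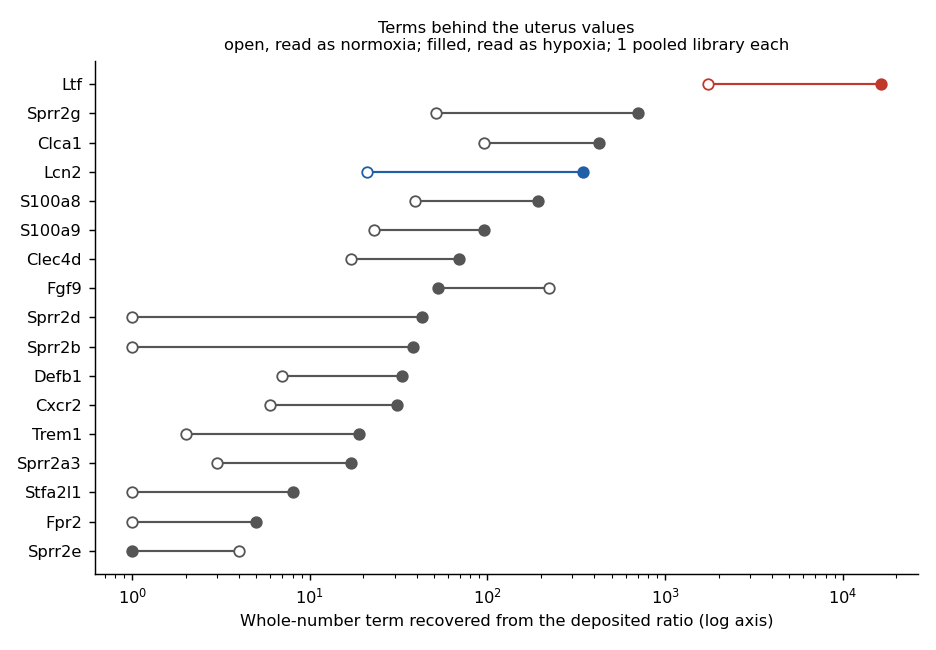
Whole-number terms of Ltf, Lcn2 and the other listed uterus genes of the estrogen-response, neutrophil and epithelial antimicrobial lists, on a log axis. Open circles are read as normoxia and filled circles as hypoxia, 1 pooled library each. Ltf spans 1740 to 16403 and Lcn2 spans 21 to 344, with the hypoxia circle to the right in both, while Fgf9 and Sprr2e run the other way.

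Of the 903 uterus genes, 491 (54.4%) had a positive value and 97 (10.7%) had a value of at least 3, and both Ltf and Lcn2 are among the latter. These shares are the background for the choice of the pair and say nothing further about it. The threshold itself lowers the share of positive values. With the shared factor of 0.995, terms of 1 to 4 pass it, as 139 genes did, and terms of 4 to 1 do not. The smallest positive value in the authors' deposited table is 2.01, that of Pcdh10 and Nrg1 at terms of 77 to 19, and both Ltf and Lcn2 lie well inside that edge. Among the 491 positive values Lcn2 ranked 21 and Ltf ranked 79. Of the 78 genes above Ltf, 71 had a smaller term under 10. A smaller term of at least 10 was found for 82 genes (9.08%), 53 of them (64.6%) with a positive value. Among those 53 genes Lcn2 had the largest value and Ltf ranked 8. A gene whose counts shared a divisor can be missing from that set, since terms are in lowest form. The counting intervals of 14 of the other 52 genes overlapped that of Lcn2, so first place is not separated from its neighbours by counting error. For Ltf, 23 of the other 52 intervals overlapped its own, so its rank is not fixed either.

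**Figure D2:**
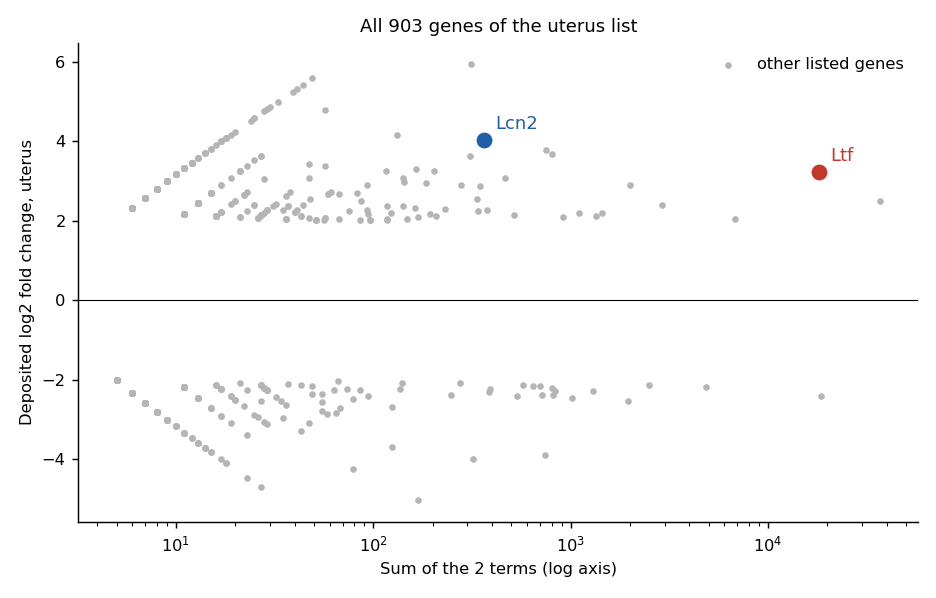
Deposited log2 fold change of each of the 903 uterus genes against the sum of its 2 terms on a log axis, with Ltf and Lcn2 marked. The slanted rows at the left are genes with a term of 1. Lcn2 lies at 4.03 with a sum of 365, and Ltf lies at 3.23 with a sum of 18143, the third largest of the list.

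Ltf held the third largest sum of terms in the uterus list, after Mfap4, a microfibril-associated gene, and Gm43305, a processed transcript. Because terms are in lowest form, the order by sum need not be the order by read count. Of the 10 genes with the largest sums, 6 had positive and 4 had negative values. In the authors' deposited table Mfap4 had 2.50, Igha 2.05, Slc26a7 2.40, Ccl28 2.89 and Cyp2e1 2.19, all below the 3.23 of Ltf. Those with negative values in the authors' deposited table were Gm43305 at -2.42, Syt15 at -2.17, Slc13a5 at -2.12 and Lrrn4 at -2.53. Ltf therefore had the largest absolute value of these 10 genes.

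The genes nearest to each of the pair in value, among protein-coding uterus genes with a smaller term of at least 10, were named by the absolute difference in log2 fold change over this 1 comparison. Nearest to Ltf were Dio1, which encodes a deiodinase that activates thyroid hormone, Synpr, which encodes a synaptic vesicle protein, and Sftpd, which encodes the secreted host-defence lectin surfactant protein D. In the authors' deposited table Dio1 had 3.26 (terms 183 to 19), Synpr had 3.31 (149 to 15) and Sftpd had 3.08 (415 to 49). Nearest to Lcn2 were Cdh16, a cadherin gene, Prap1, which encodes a secreted proline-rich acidic protein, and Synpr. In the authors' deposited table Cdh16 had 3.68 (terms 745 to 58) and Prap1 had 3.63 (286 to 23). These genes had far smaller terms than Ltf, and the counting intervals of all 5 overlapped that of the gene they were matched to.

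**Figure D3:**
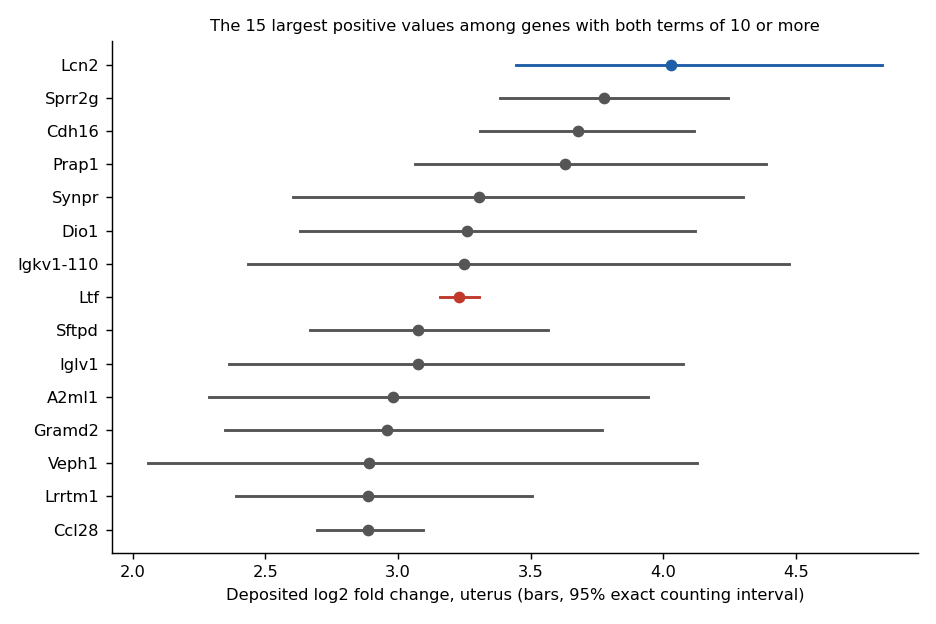
The 15 largest positive log2 fold changes among uterus genes with both terms of at least 10, as points with 95% exact counting intervals on the log2 scale. Lcn2 is at the top at 4.03 with a wide interval, and Ltf at 3.23 has the narrowest interval of the 15.

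On GRCm38, the assembly that the name mm10 also denotes, Ltf (ENSMUSG00000032496.7) lies on chromosome 9 from 111019271 to 111042767 on the plus strand. Its longest coding transcript has 17 exons. Lcn2 (ENSMUSG00000026822.14) lies on chromosome 2 from 32384633 to 32388252 on the minus strand, with 6 exons in its longest coding transcript. No other annotated gene overlaps either of them (0 genes), and 0 of the 50-base stretches of their annotated transcripts occur in a transcript of another gene. Within the GENCODE M21 annotation, the pair thus had no overlapping gene and no near-identical copy.

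The promoter windows of the 2 genes are shown because both genes had large positive values in the same tissue. Each runs from 250 bases before to 50 bases after the RefSeq start site on GRCm38.p6, 5′ to 3′ on the strand of the gene. The Ltf window is chr9:111019042-111019341 on the plus strand and the Lcn2 window is chr2:32387690-32387989 on the minus strand. Capitals mark matches, on either strand, to the core estrogen receptor motif GGTCA, the C/EBP motif TTNNGNAA and the NF-kappaB motif GGGNNNNNCC.
Ltf: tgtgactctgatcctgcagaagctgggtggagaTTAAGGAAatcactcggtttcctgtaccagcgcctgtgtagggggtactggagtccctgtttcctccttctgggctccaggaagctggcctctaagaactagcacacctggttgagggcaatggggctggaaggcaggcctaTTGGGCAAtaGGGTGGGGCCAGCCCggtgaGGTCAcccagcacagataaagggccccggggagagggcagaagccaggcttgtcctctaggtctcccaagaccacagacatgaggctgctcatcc
Lcn2: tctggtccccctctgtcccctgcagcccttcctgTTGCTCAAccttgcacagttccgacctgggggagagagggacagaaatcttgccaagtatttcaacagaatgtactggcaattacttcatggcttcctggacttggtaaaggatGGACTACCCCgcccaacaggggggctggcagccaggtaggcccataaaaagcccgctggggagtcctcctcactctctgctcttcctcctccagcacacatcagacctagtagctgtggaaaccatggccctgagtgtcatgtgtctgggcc

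The motif GGTCA, one arm of the palindrome that estrogen receptors bind, occurred once in the Ltf window, 45 to 41 bases before the start site, and 0 times in the Lcn2 window. It was present in 40.5% of 32851 mouse promoter windows of the same length. The C/EBP motif, for a family of factors active in myeloid cells and in acute-phase responses, matched from -217 to -210 and from -75 to -68 in Ltf, and from -216 to -209 in Lcn2. It was present in 40.7% of all windows. The NF-kappaB motif, for a factor of inflammatory signalling, matched Ltf at 3 overlapping positions between -65 and -51, one of them on both strands. It matched Lcn2 from -102 to -93, and was present in 50.8% of all windows. The full palindromic estrogen response element, found in 0.0700% of windows, the hypoxia response motifs ACGTG (19.6%) and GCGTG (32.4%), and the motif TATAAA (13.6%) had 0 matches in both windows. Among 250 windows of 193 uterus genes with positive values, GGTCA was present in 38.0%, the C/EBP motif in 45.6%, the NF-kappaB motif in 46.8%, ACGTG in 18.0%, GCGTG in 21.2% and TATAAA in 14.8%. The palindromic element was in 0 of these 250 windows. A match is a stretch of letters and not a shown binding site. Imperfect palindromes, and sites outside these windows, were not searched for, so 0 matches do not show that a gene lacks such a site.

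**Figure D4:**
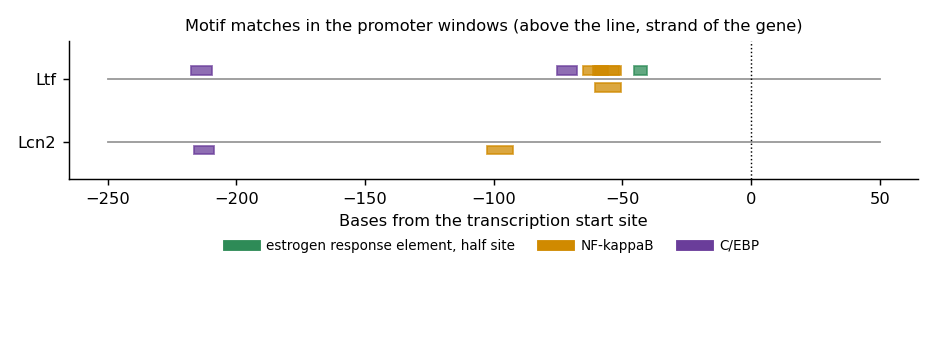
Motif matches in the promoter windows of Ltf and Lcn2, by distance in bases from the transcription start site (dotted line). Boxes above a line are on the strand of the gene and boxes below it are on the opposite strand. A C/EBP match lies near -217 in Ltf and near -216 in Lcn2, and GGTCA appears in Ltf at -45.

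Of 61 annotated genes within 1 Mb of Ltf, 2 were listed in the uterus, against 1.63% of the 55341 annotated gene symbols. Rtp3, a receptor transporter protein gene 28.7 kb from Ltf, had the opposite sign, with terms of 7 to 51 and -2.87 in the authors' deposited table. The noncoding gene Gm42470, 363 kb away, had terms of 9 to 1 and 3.16 in the authors' deposited table. Of 85 genes within 1 Mb of Lcn2, 1 was listed, the antisense gene Gm13441, with -2.33 in the authors' deposited table. Its terms were 1 to 5, and the counting interval included a ratio of 1.

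Estrogen-response genes of the uterus were the first list read beside the pair. All 12 lists were chosen with earlier results of these data known. A listed share above the background, here and below, is therefore a description and not a test. Of the 36 estrogen-response genes, 9 were listed, against 1.63% of annotated symbols. The values were positive for 7 and negative for 2, against 0.887% of annotated symbols with a positive value. Without Ltf and Lcn2, 7 of 34 were listed, 5 higher and 2 lower, with a median of 2.50 in the authors' deposited table. Apart from Clca1 and Fgf9, these 7 were all Sprr2 genes on chromosome 3, so the count rests mostly on that family. The median there was 2.12 over all 903 genes of both signs and 2.58 over the 491 positive values. Sprr2g, of a family of cornified envelope proteins, had terms of 701 to 51 and 3.77 in the authors' deposited table. Sprr2a3 had terms of 17 to 3, while Sprr2d and Sprr2b, at 43 to 1 and 38 to 1, had a normoxia term of 1, so the size of their folds was not fixed. Sprr2 genes form a family of similar genes, and sequence shared among them was not checked. How the authors' counting treated reads that match more than 1 of them is not stated. Clca1, linked in mice to mucus secretion, had terms of 423 to 95 and 2.15 in the authors' deposited table. Its counting interval of 3.57 to 5.65 for the fold lay below that of Ltf. Fgf9, a growth factor gene, ran the other way with terms of 53 to 223 and -2.08 in the authors' deposited table. Sprr2e was also negative, on terms of 1 to 4. Muc1, C3, Pgr, Greb1 and Lif belong to the 27 members that were not listed, which leaves changes below the threshold unseen.

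Of the 25 neutrophil markers, 9 were listed and all 9 had positive values, against 0.887% of annotated symbols. Without Ltf and Lcn2 that was 7 of 23, with a median of 2.32 in the authors' deposited table, against 2.58 over the 491 positive values. For the calprotectin subunit genes, the authors' deposited table gave S100a8 2.30 (terms 193 to 39) and S100a9 2.04 (terms 95 to 23). Their counting intervals for the fold, 3.54 to 7.32 and 2.65 to 7.11, lay below those of both Ltf and Lcn2. Clec4d, a myeloid lectin receptor gene, had terms of 69 to 17, and Cxcr2, the receptor for neutrophil chemokines, had 31 to 6. Trem1 at 19 to 2, Stfa2l1 at 8 to 1 and Fpr2 at 5 to 1 had small terms, and the interval of Fpr2 included a ratio of 1. Over all 903 uterus genes, 489 (54.2%) had an interval that left out a ratio of 1. Here it was 8 of 9, with Ltf and Lcn2 counted in. Each gene had already passed the fold threshold, so these counts are a description and not a test. The list was also chosen with earlier results of these data known. The 16 markers not listed include Ly6g, Csf3r, Mpo, Elane, Camp, Ngp, Mmp8 and Retnlg. The tables give no level for them, so genes without reads and genes that changed less are alike in this respect.

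Of 20 neutrophil granule protein genes, which span the granules that hold lactoferrin and lipocalin 2 and those of other kinds, Ltf and Lcn2 were the 2 listed. None of the other 18, among them Camp, Ngp, Mmp8, Mmp9 and Mpo, was listed (0 genes). Over all annotated symbols the listed share was 1.63%, so a count of 0 is near it. Of 17 macrophage and monocyte markers 1 was listed, against that 1.63%. It was Mmp12, a matrix protease gene, with terms of 24 to 5 and 2.26 in the authors' deposited table. Of 16 B and plasma cell markers 4 were listed, all with positive values, against 0.887% of annotated symbols with a positive value. In the authors' deposited table these were Iglc1 at 3.06, Igkc at 2.19, Jchain at 2.11 and Igha at 2.05. Of 17 epithelial markers, including Epcam, Cdh1 and Krt8, 0 were listed, a count near the 1.63% of annotated symbols. Without levels the labelled tissue could not be checked against its markers. The part of any immune cell type in the values of Ltf and Lcn2 was not tested.

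Among 35 genes of iron and siderophore handling, 3 were listed, Ltf, Lcn2 and Hjv, which encodes the hemojuvelin coreceptor of hepcidin regulation. Without the pair this was 1 of 33, near the 1.63% of annotated symbols that were listed. With terms of 1 to 4, Hjv had -2.01 in the authors' deposited table and an interval that included a ratio of 1. The lipocalin 2 receptor genes Slc22a17 and Lrp2, the transferrin gene Trf and its receptor gene Tfrc, and the ferritin gene Fth1 were not listed. In the transferrin and lipocalin families 3 of 28 genes were listed, the pair and Lcn4, again on terms of 1 to 4. Without the pair this was 1 of 26, also near that share. Lcn4 too had an interval that included a ratio of 1.

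Of 28 genes for antimicrobial secretions of epithelia, 5 were listed and all 5 had positive values. Without the pair it was 3 of 26, against 0.887% of annotated symbols with a positive value. Beside the pair and the calprotectin genes this was the beta-defensin gene Defb1, with terms of 33 to 7 and 2.23 in the authors' deposited table. Slpi, Pigr, Wfdc2, Reg3g and Lyz2 were not listed. Of 30 genes of the NF-kappaB, interleukin-17 and interleukin-6 response, 2 were listed, Lcn2 and the acute-phase gene Saa3. Without Lcn2 that was 1 of 29, near the 1.63% of annotated symbols that were listed. Saa3 had terms of 54 to 13 and 2.05 in the authors' deposited table. Nfkbiz, Cxcl1, Cxcl5, Il6 and Csf3 were not listed. Of 20 progesterone-response genes 1 was listed, also near that share. It was Cyp26a1, an enzyme of retinoic acid clearance, with terms of 313 to 65 and 2.26 in the authors' deposited table. Of 35 low-oxygen response genes, including Vegfa, Car9 and Slc2a1, 0 were listed, a count near the 1.63% of annotated symbols that were listed.

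In the ovary, where 854 genes (1.54% of annotated symbols) were listed, the estrogen-response, granule, iron-handling and antimicrobial lists had 0 listed genes, as did Ltf and Lcn2 themselves. An absent gene may have changed by less than the threshold or have had too few reads, and the tables do not tell these apart. Trem1 was the 1 neutrophil marker listed in the ovary, with terms of 10 to 1. The authors' deposited tables gave it 3.25 there and 3.24 in the uterus. Calca was the 1 progesterone-response gene listed in the ovary, with terms of 19 to 2 and 3.18 in the authors' deposited table. Whether the values of Ltf and Lcn2 differ between uterus and ovary was not tested, since the ovary gives no value for either.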

How the data were processed

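RNA of 4 pooled libraries, 1 per group, was measured by sequencing of polyadenylated RNA with a directional library kit, per the labels' protocols. Named in the submitters' processing notes are the build mm10 and the tools DESeq2 2.11.40.7, HTSeq 0.9.1, HISAT2 2.2.1 and FastQC 0.73. Their options, including strand, are not given in the sources used. The authors deposited 2 tables of log2 fold changes, per the file headers, which hold only absolute values of at least 2. Read totals are unknown, so precision is limited to the recovered terms.

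The shared factor was taken from the commonest value, read as a ratio of 1 to 4. Terms were the smallest whole-number pair within a relative tolerance of 5e-14, and no uterus gene was off by more than 7.11e-15. Exact Clopper-Pearson intervals of 95% used the terms less 1, and the ratio of folds used a conditional exact interval. Gene positions came from GENCODE M21, matched by symbol for 866 of 903 uterus genes, and promoter windows from RefSeq on GRCm38.p6, 1 for each of the pair.

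The pair and the 12 gene lists were chosen with earlier results of these data known. Genes named are the pair, listed list members, the 3 nearest in value to each, the 10 largest sums of terms and listed uterus genes within 1 Mb. Pcdh10, Nrg1 and the unlisted genes named as examples were picked after the tables were seen. No test between groups was made. SciPy 1.17.1, pandas 2.3.3, NumPy 2.4.6 and Matplotlib 3.10.9 were run under Python 3.11.15.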

Additional observations from a re-analysis of the deposited data

Results flagged for a closer look

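Saa3, named from the acute-response list, was listed with opposite signs, as the authors' deposited tables gave it 2.05 for uterus but -2.64 for ovary. The difference between tissues was not tested, and Ltf and Lcn2 gave no ovary value to set beside it.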

How the results depend on the processing

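The value of Ltf ranged from 3.23 to 3.24 on the log2 scale with 0 or 5 added to both counts or with the shared factor removed. That of Lcn2 ranged from 3.79 with 5 added to 4.09 with 0 added, and the excess of Lcn2 over Ltf from 0.565 to 0.863. All kept their direction. For Ltf and Lcn2 themselves these settings could not reverse it, so they are no check of the direction. The unstated numerator was not varied. With the terms themselves as counts, a reading added after the data were seen, the intervals of the fold were 8.93 to 9.86 for Ltf and 10.5 to 26.7 for Lcn2. The ranks among positive values moved from 79 to 8 for Ltf and from 21 to 1 for Lcn2 with a smaller term of at least 10, and to 9 and 2 with 5 added, where an immunoglobulin variable gene ranked above Lcn2. At an absolute value of at least 3 the listed members fell from 9 to 5 for estrogen-response genes, from 9 to 3 for neutrophil markers, from 5 to 2 for antimicrobial secretions, from 4 to 1 for B and plasma cell markers, from 2 to 1 for the acute response, and from 1 to 0 for progesterone-response genes and macrophage markers. With a smaller term of at least 10 they fell to 5 for estrogen-response genes, 5 for neutrophil markers and 0 for macrophage markers. The share of positive values rose from 54.4% to 64.6% with that filter. It was 64.3% without genes of terms 1 to 4, an alternative added after the data were seen. That second rise was fixed in advance, since all 139 of those genes had negative values. With the shared factor of 0.995, a ratio of 1 to 4 passes the threshold and 4 to 1 does not. No paired analysis was possible because each group is 1 pooled library and no test was made. Leaving out a library was not possible for the same reason.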
